A study of Mus musculus with 12 samples.

Results

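The Hox genes of the mouse were followed across cultures of experimental glioblastoma and cultures of neural stem cells from the same mouse lines. Members were the probe sets of the expression table that the array's annotation pairs with a single gene symbol, that of a Hox gene. Of 38 Hox genes named as members, 37 had such a probe set, 1 each, among 21780 probe sets with 1 symbol and 28270 in all. Hoxb8 was the exception, since the annotation gives its probe set both Hoxb8 and Hoxb7, and it was not analysed here. The 37 genes comprised 10 of the Hox A cluster on chromosome 6, 9 of Hox B on chromosome 11, 9 of Hox C on chromosome 15 and 9 of Hox D on chromosome 2.

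The tumour groups were mGC1_GFAP, mGC2_NES and mGC3_CNP, with 3 independent cultures each, and the NSC group held 3 cultures, 1 from each mouse line. The tumours had been started in adult brain with DF-1 cells, a chicken fibroblast line that released a retrovirus carrying PDGFB with an HA tag (RCAS-PDGFB-HA). This virus enters only cells that bear its avian receptor, tv-a, which the Gfap promoter drives in G/tv-a mice, the Nes promoter in N/tv-a mice and the Cnp promoter in C/tv-a mice. mGC1_GFAP came from G/tv-a, mGC2_NES from N/tv-a and mGC3_CNP from C/tv-a mice, so mouse line and labelled cell of origin cannot be told apart. All 12 cultures, NSC included, came from Arf-/- animals, grew adherently in stem cell medium and received no treatment. The NSC cultures came from the subventricular zone of adult brain, which is part of the forebrain.

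Hox genes encode homeodomain transcription factors that give cells a position along the head-to-tail axis. Within a cluster, genes at the low-numbered end act in the hindbrain and neck and genes at the high-numbered end act in the trunk, tail and limbs, and genes that carry the same number in different clusters (paralogs) are alike in sequence. The forebrain normally forms without Hox expression, Polycomb complexes keep the clusters silent there, and retinoic acid opens the low-numbered end in hindbrain and spinal cord.

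Values were log2 probe set values, in which 1 unit is a 2-fold difference, and the array medians lay between 7.60 and 7.66. A probe set also reads something when its transcript is absent. Probe sets for Prm2, Tnp1, Tnp2 and Odf1, which are genes of sperm formation, read between 5.60 and 7.42 over the 12 cultures, and 1023 olfactory receptor probe sets had a median of 4.93 and a 95th percentile of 6.64. By the upper of these spermatid readings, 8 of the 37 Hox genes had a group mean above 7.42 in at least 1 group: Hoxa3, Hoxa4, Hoxa5, Hoxa6, Hoxa7, Hoxb1, Hoxb3 and Hoxb9. For the other Hox genes, the presence of a transcript was not shown in any group. The highest olfactory receptor probe set averaged 9.56 over the 12 cultures, so a reading above 7.42 does not by itself show a transcript. A fold change is a lower bound where 1 of its sides read below 7.42. Only the same gene is compared between cultures, since the levels of different probe sets are not on 1 scale.

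The labels call the tumour cultures glioma stem cells and the others normal neural stem cells, and these names were set against marker genes. The mean of 7 oligodendrocyte precursor markers ranged over 12.3 to 12.5 in the tumour cultures and over 9.91 to 10.1 in the NSC cultures. Of those 7 markers, 5 rose in tumours and 0 fell, led by Sox10 with 12.63 ± 0.04 in tumours (SD, n = 9) and 8.12 ± 0.09 in NSC (SD, n = 3). Of 8 neural stem cell markers 0 rose and 6 fell, and their mean ranged over 8.63 to 9.47 in the tumour cultures and over 10.9 to 11.2 in NSC. The largest falls were in Egfr by 5.43 ± 0.11, Slc1a3 by 3.12 ± 0.56 and Nes by 2.07 ± 0.15. Egfr, Prom1 and Gfap averaged 6.34, 5.92 and 6.54 in the tumour cultures, below the highest spermatid reading. Microglial markers read at most 7.65 in tumours and 7.62 in NSC, with 0 of 7 higher and 1 lower. Among all probe sets 17.6% rose and 19.2% fell in tumours. In the same contrast 1 of 6 endothelial markers rose, 2 of 8 pericyte and fibroblast markers rose and 2 fell, 2 of 4 neural crest and Schwann markers rose and 1 fell, and 0 of 7 neuronal markers rose and 3 fell. The precursor markers moved with the tumour groups as the Hox A genes described next did, and their part in that result was not tested.

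Hoxa2 to Hoxa7, which are 6 consecutive measured genes of the Hox A cluster, were higher in tumour cultures than in NSC cultures, and the other Hox genes differed by 0.21 or less in either direction. In a limma fit over all probe sets with Benjamini-Hochberg adjustment, 6 of 37 Hox genes rose in tumours, against 17.6% of all probe sets, and 1 fell, against 19.2%. As a share, the count that rose was no higher than that of all probe sets. The 6 that rose were Hoxa2, Hoxa3, Hoxa4, Hoxa5, Hoxa6 and Hoxa7, and the 1 that fell was Hoxd1. These 6 were also the Hox genes whose 9 tumour values all lay above their 3 NSC values, against 27.3% of all probe sets without overlap in either direction. Over the 37 genes the median difference of tumour minus NSC was 0.06, and it was 0.01 over all probe sets. In bulk RNA, more cells of a type that expresses a gene cannot be told apart from more RNA per cell.

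Hoxa5, which in the embryo acts in the neck and upper trunk and in lung formation, differed most. It read 9.56, 9.45 and 9.01 in the 3 mGC1_GFAP cultures, 9.52, 9.26 and 9.42 in mGC2_NES and 9.93, 9.91 and 9.98 in mGC3_CNP, against 6.83, 6.92 and 6.95 in the NSC cultures. Every tumour culture stood at least 2.06 above the highest NSC culture, that of the G/tv-a line, and the 3 mGC3_CNP cultures were the highest of all. The tumour mean was 9.56 ± 0.33 (SD, n = 9) and the NSC mean 6.90 ± 0.06 (SD, n = 3), a difference of 2.66 ± 0.10 (SE), or at least 6.32-fold (limma adjusted p = 3.86e-09). The NSC readings fell within the spermatid range.

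Hoxa3, which patterns the third pharyngeal arch and the organs that come from it, such as the thymus, came next. Its values were 7.50, 7.45 and 7.46 in mGC1_GFAP, 7.65, 7.27 and 7.54 in mGC2_NES and 7.87, 7.76 and 7.89 in mGC3_CNP, against 6.32, 6.03 and 6.09 in NSC. All tumour cultures were above all NSC cultures, and mGC3_CNP was above the other tumour groups. The difference of tumour minus NSC was 1.45 ± 0.08, at least 2.73-fold, with means of 7.60 ± 0.21 and 6.15 ± 0.15 (limma adjusted p = 1.25e-07). Its tumour values, from 7.27 to 7.89, lay on both sides of the highest spermatid reading.

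Hoxa4, a gene of the neck vertebrae, was the only one of the 6 with an NSC mean above 7.42. It had 9.09, 9.31 and 9.20 in mGC1_GFAP, 8.99, 8.76 and 9.21 in mGC2_NES and 9.55, 9.15 and 9.20 in mGC3_CNP, against 8.06, 8.29 and 8.10 in NSC. The lowest tumour culture, mGC2_NES 2, stayed above the highest NSC culture, the one from the N/tv-a line. The tumour mean of 9.16 ± 0.22 exceeded the NSC mean of 8.15 ± 0.12 by 1.01 ± 0.11, or 2.02-fold (limma adjusted p = 1.83e-05).

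Hoxa6 and Hoxa7, which act in the thoracic region, rose less evenly. Hoxa6 read 7.50, 8.10 and 7.46 in mGC1_GFAP, 8.12, 7.81 and 8.27 in mGC2_NES and 8.57, 7.95 and 7.82 in mGC3_CNP, against 6.91, 6.83 and 6.83 in NSC. Hoxa6 spread more widely within each tumour group than among the NSC cultures, and tumour and NSC values did not overlap. The difference was 1.10 ± 0.17, at least 2.15-fold (means 7.96 ± 0.35 and 6.85 ± 0.04, limma adjusted p = 2.93e-04). Hoxa7 read 7.89, 8.06 and 8.14 in mGC1_GFAP, 7.69, 7.62 and 8.08 in mGC2_NES and 8.71, 7.67 and 7.67 in mGC3_CNP, against 7.37, 7.43 and 7.25 in NSC. Its mGC3_CNP mean rested on 1 culture, replicate 1, and 2 of the mGC2_NES cultures, at 7.69 and 7.62, came near the highest NSC value of 7.43. The difference of 0.60 ± 0.19 (means 7.95 ± 0.35 and 7.35 ± 0.09) had a limma adjusted p of 0.0295, which became 0.0800 without the C/tv-a NSC culture, 0.0637 without the N/tv-a one and 0.105 without the G/tv-a one.

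Hoxa2, the gene of the second pharyngeal arch and of the most anterior Hox-expressing hindbrain, shifted least but with little spread. It read 6.58, 6.60 and 6.60 in mGC1_GFAP, 6.68, 6.56 and 6.77 in mGC2_NES and 6.79, 6.76 and 6.83 in mGC3_CNP, against 6.10, 6.24 and 6.18 in NSC. Tumour and NSC values did not overlap, and the difference was 0.51 ± 0.05 (means 6.68 ± 0.10 and 6.17 ± 0.07, limma adjusted p = 1.87e-05). Both sides lay inside the spermatid range, so that Hoxa2 differed between the groups in probe set reading while its transcript was not shown to be present.

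**Figure D1:**
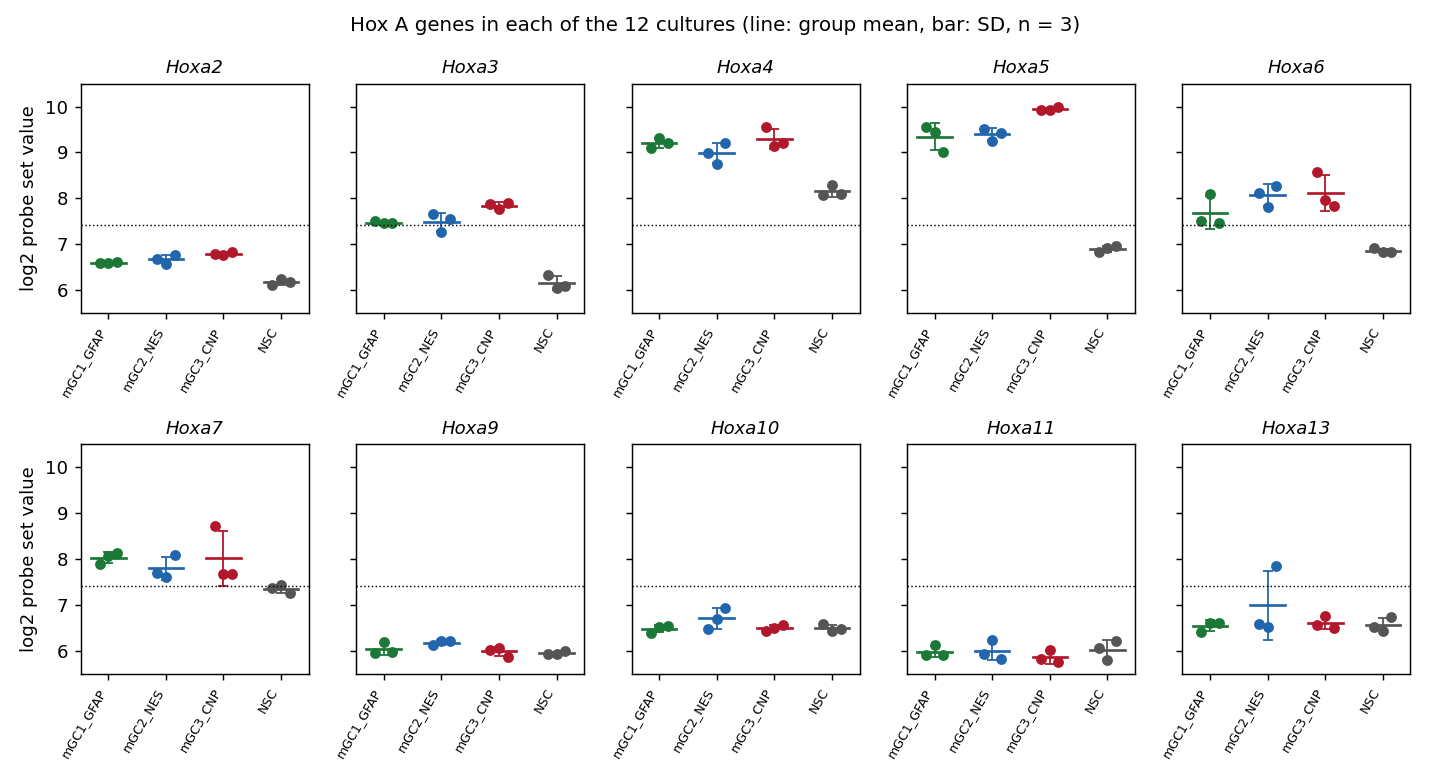
Log2 probe set values of the 10 measured Hox A genes in each culture, by group, with the group mean as a line and the SD as a bar (n = 3). The dotted line at 7.42 is the highest reading of the spermatid probe sets. In Hoxa5 and Hoxa6 every tumour culture sits above that line and every NSC culture below it, and Hoxa9, Hoxa10 and Hoxa11 lie below it in every culture.

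Beyond Hoxa7, no Hox A gene was called for tumours as a whole. Hoxa9, a regulator of blood progenitors and of the trunk, differed by 0.12 ± 0.06 (means 6.07 ± 0.12 in tumours and 5.95 ± 0.03 in NSC, limma adjusted p = 0.189). Its readings were 5.95, 6.18 and 5.98 in mGC1_GFAP, 6.11, 6.21 and 6.20 in mGC2_NES and 6.02, 6.06 and 5.87 in mGC3_CNP, against 5.93, 5.93 and 5.99 in NSC. Hoxa10 and Hoxa11, which act in the reproductive tract and limbs, differed by 0.07 and -0.07, and Hoxa13, a gene of the digits and hindgut, by 0.15, and none of these was called. The 95% intervals of these 4 differences lay within -0.34 to 0.65, the widest belonging to Hoxa13. Hoxa13 read 7.85 in mGC2_NES 3 and between 6.40 and 6.76 in the other 8 tumour cultures, against 6.43 to 6.73 in NSC. The same mGC2_NES culture read 7.48 for Cdx2, a homeobox gene that activates posterior Hox genes in the embryo. For Cdx2 the other 8 tumour cultures read 6.60 to 6.87 and NSC 6.49 to 6.66. That culture also stood apart from the other 8 in Acta2, at 8.59 against 6.79 to 7.15, but below the 9.60 to 10.14 of NSC. Acta2 is only 1 of the 8 pericyte and fibroblast markers. Whether these readings of a single culture are linked was not tested.

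The stretch upstream of a gene's start is shown for 4 of the genes that rose and for Hoxa9, the first measured gene past them that did not rise in tumours as a whole, so that the sequences on either side of that step can be compared. Each is 250 bases long, from RefSeq on GRCm38.p6, and all lie on the minus strand, at chr6:52164832-52165081 for Hoxa2, chr6:52213068-52213317 for Hoxa3, chr6:52204588-52204837 for Hoxa5, chr6:52218574-52218823 for Hoxa7 and chr6:52227371-52227620 for Hoxa9. Capitals mark matches on either strand to TGATNNAT, which Hox and Pbx proteins bind together, to AGGTCA, the hexamer that nuclear receptors such as the retinoic acid receptors read, or to TTTATG, bound by Cdx proteins.
Hoxa2: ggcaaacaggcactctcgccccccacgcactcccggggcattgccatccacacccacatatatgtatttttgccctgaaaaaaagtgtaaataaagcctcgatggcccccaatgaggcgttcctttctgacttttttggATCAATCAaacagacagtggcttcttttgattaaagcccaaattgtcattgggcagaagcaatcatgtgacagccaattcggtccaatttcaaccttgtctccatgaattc
Hoxa3: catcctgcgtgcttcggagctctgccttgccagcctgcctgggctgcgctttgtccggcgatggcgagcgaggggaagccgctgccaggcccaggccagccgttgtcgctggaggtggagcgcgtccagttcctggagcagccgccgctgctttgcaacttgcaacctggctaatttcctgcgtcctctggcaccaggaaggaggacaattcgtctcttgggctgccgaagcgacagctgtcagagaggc
Hoxa5: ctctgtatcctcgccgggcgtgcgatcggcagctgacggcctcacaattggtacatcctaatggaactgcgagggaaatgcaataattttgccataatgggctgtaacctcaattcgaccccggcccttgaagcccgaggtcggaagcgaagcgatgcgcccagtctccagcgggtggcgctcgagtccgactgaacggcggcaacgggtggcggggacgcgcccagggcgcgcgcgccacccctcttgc
Hoxa7: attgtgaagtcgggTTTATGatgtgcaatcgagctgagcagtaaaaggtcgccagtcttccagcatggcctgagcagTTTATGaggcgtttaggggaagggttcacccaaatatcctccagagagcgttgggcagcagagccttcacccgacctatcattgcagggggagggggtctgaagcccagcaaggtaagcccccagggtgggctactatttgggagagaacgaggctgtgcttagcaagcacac
Hoxa9: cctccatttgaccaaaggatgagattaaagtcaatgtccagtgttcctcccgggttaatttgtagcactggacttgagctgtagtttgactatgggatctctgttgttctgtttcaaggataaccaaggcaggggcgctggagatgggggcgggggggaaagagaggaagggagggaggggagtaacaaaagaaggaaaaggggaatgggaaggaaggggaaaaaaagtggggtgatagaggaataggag
Hoxa2 held 1 match to TGATNNAT, Hoxa7 held 2 to TTTATG, and Hoxa3, Hoxa5, Hoxa6 and Hoxa9 held none of the 3 motifs. Among all 32851 promoters of the table, 7.68% held TGATNNAT, 14.0% AGGTCA and 10.8% TTTATG in the same window, and of 23 promoters of 21 Hox genes 3, 6 and 4 did. A match is a description of these letters only, and no match says only that they are not in this window. The windows differed in CG dinucleotides, with 28 for Hoxa5, 24 for Hoxa6, 18 for Hoxa3, 7 for Hoxa7, 6 for Hoxa2 and 3 for Hoxa9, against a median of 6 over all promoters (quartiles 2 and 16) and 13 over those of Hox genes.

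No gene of the Hox B, C or D clusters rose in the pooled tumour contrast. In Hox B and Hox C, 0 of 9 genes each were called in either direction by limma, with 0 of 9 also under an unadjusted p of 0.05. Over all probe sets 17.6% rose and 19.2% fell, and 9545 of 21780 had an unadjusted p under 0.05. In Hox D, 1 of 9 fell and 2 had an unadjusted p under 0.05. The other of these 2 was Hoxd3, at 0.15, which passed only without mGC3_CNP 3 among the 12 fits that left out 1 culture (0.17, limma adjusted p = 0.0471). Over the 26 uncalled genes of these 3 clusters the differences of tumour minus NSC ran from -0.12 to 0.15, and their 95% intervals lay within -0.26 to 0.32. Paralogs 2 to 7 of these clusters, which carry the same numbers as the Hox A genes that rose, had 11 measured genes, with differences from -0.08 to 0.15 and 0 called. Set beside the 2.66 of Hoxa5, its paralogs Hoxb5 and Hoxc5 differed by 0.12 and 0.08.

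The spread over all 12 cultures includes the difference between tumour and NSC cultures, so it largely restates that contrast. From the lowest to the highest culture, Hox A genes spanned a median of 1.46 and up to 3.15 for Hoxa5. Within Hox A, however, Hoxa9, Hoxa10 and Hoxa11 spanned only 0.34, 0.55 and 0.48. Hox B genes spanned a median of 0.32 and at most 0.40, Hox C genes 0.36 and at most 0.43, and Hox D genes 0.38 and at most 0.57. Hoxb1 and Hoxb3, which both act in the hindbrain, had means above 7.42 in all 4 groups and no called difference. Hoxb1 had group means of 7.70 in mGC1_GFAP, 7.71 in mGC2_NES and 7.67 in mGC3_CNP, and 7.65 in NSC.

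Hoxd1, which in the mouse acts in pain-sensing neurons, fell by 0.21 ± 0.06 on the log2 scale (means 6.19 ± 0.08 in tumours and 6.40 ± 0.12 in NSC, limma adjusted p = 0.0204). Its values were 6.14, 6.16 and 6.07 in mGC1_GFAP, 6.27, 6.33 and 6.17 in mGC2_NES and 6.13, 6.28 and 6.16 in mGC3_CNP, against 6.49, 6.44 and 6.27 in NSC. The ranges of tumour and NSC cultures overlapped, and both lay inside the spermatid range. The adjusted p became 0.115 without the C/tv-a NSC culture and 0.0848 without the N/tv-a one.

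**Figure D2:**
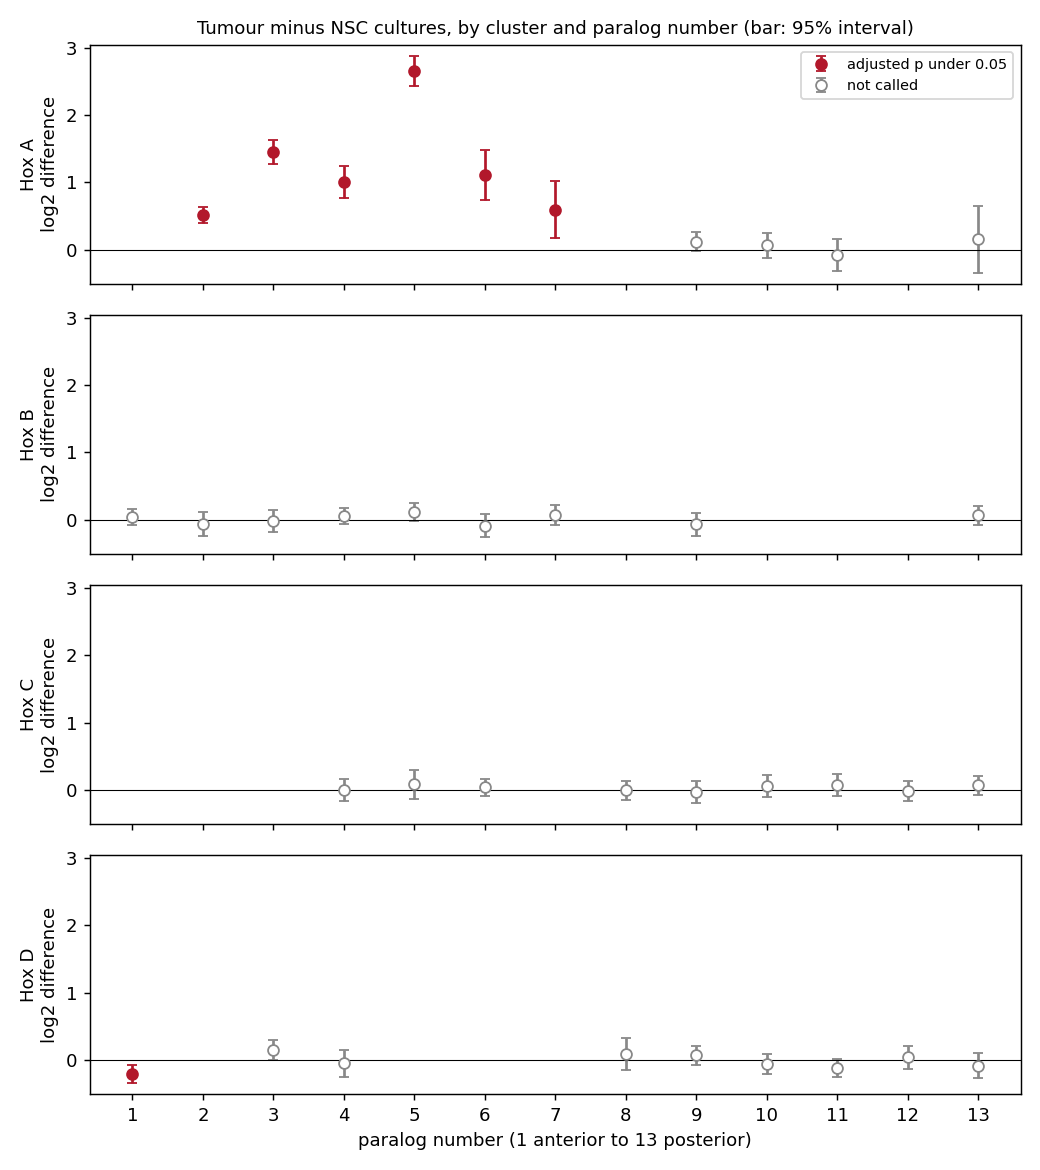
Difference of tumour minus NSC (log2, with its 95% interval) for the 37 measured Hox genes, by cluster from top to bottom and by paralog number along the horizontal axis. Filled points have an adjusted p under 0.05. They run from Hoxa2 to Hoxa7, with a peak of 2.66 at Hoxa5, and include Hoxd1 at -0.21. The differences in the other clusters lie near 0.

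The other genes of the 4 chromosomes were read in the same contrast. Probe sets on chromosome 6 other than the members had a median difference of 0.02, those on chromosome 11 of 0.01 and those on chromosome 2 of 0.01. On chromosome 15, which carries Hox C, the median was 0.11 and 37.6% of 822 probe sets rose in tumours. Of the Hox C genes, 0 of 9 were called. They read at most 6.87 in any culture, inside the spermatid range, so whether they share that shift cannot be told.

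The neighbours of the Hox A cluster were read in gene order. Skap2, an adaptor protein gene next to the low-numbered end, rose by 1.01 ± 0.15, with a mean of 10.77 ± 0.22 in tumours and 9.75 ± 0.42 in NSC (limma adjusted p = 1.86e-04). Its NSC values were 9.74 for the C/tv-a, 9.34 for the N/tv-a and 10.18 for the G/tv-a culture, and the lowest tumour value was 10.36. Snx10, on the far side of Skap2, differed by -0.19 and was not called. 5730596B20Rik, a transcript listed between Hoxa3 and Hoxa4, rose by 0.98 ± 0.10 (limma adjusted p = 1.14e-05). Both of its means, 6.95 in tumours and 5.96 in NSC, lay inside the spermatid range. Beyond the other end, Hottip and Evx1 differed by 0.07 and 0.03 and were not called. Past Evx1, 1 of the probe sets of Hibadh fell by 0.81 ± 0.13 (limma adjusted p = 3.68e-04) and the other differed by -0.04 and was not called. The one that fell averaged 4.90 in tumours and 5.71 in NSC, below the highest spermatid reading. The uncalled one averaged 10.99 and 11.03. Farther on, Tax1bp1 rose by 0.37 ± 0.10 (limma adjusted p = 0.0144) and Jazf1 by 1.73 ± 0.12. Raised readings ran from Skap2 to Hoxa7 with 1 exception, Hoxaas2, an antisense transcript, at 0.17 (limma adjusted p = 0.136). In RefSeq the span of Hoxa3 contains Hoxa4, Hoxa5 and Hoxa6, so transcripts overlap there, and how far each probe set reads only its own gene is uncertain.

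**Figure D3:**
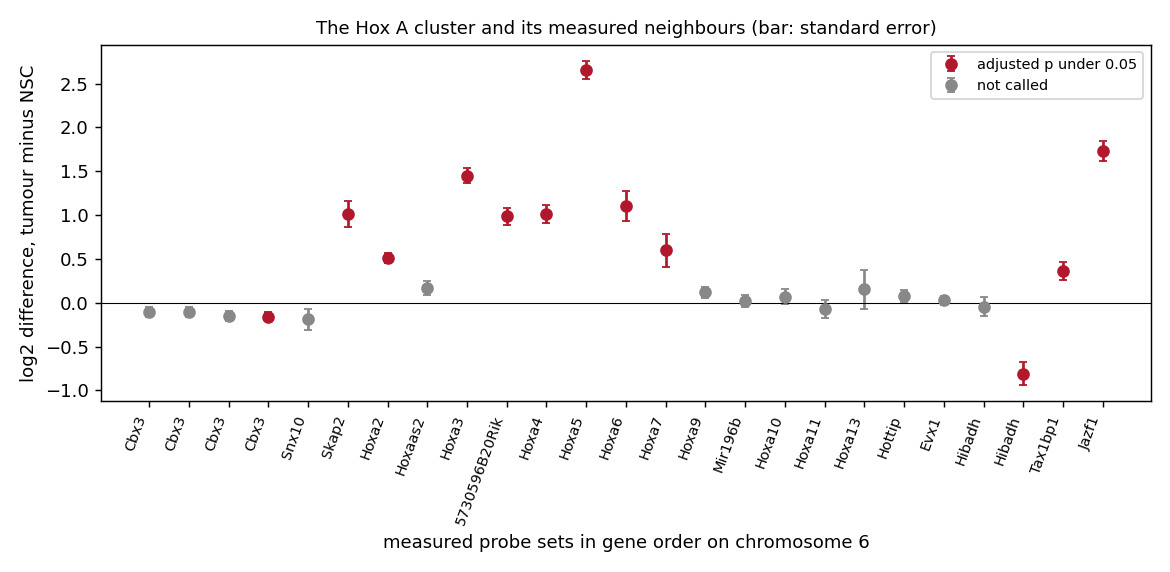
Difference of tumour minus NSC (log2, bar: SE) for measured probe sets in gene order along chromosome 6, from Cbx3 to Jazf1. Coloured points have an adjusted p under 0.05. The differences are raised from Skap2 (1.01) to Hoxa7 (0.60), with Hoxaas2 at 0.17 between them, and are near 0 from Hoxa9 to Evx1.

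Each tumour group was then set against NSC by itself. The 3 comparisons share the NSC cultures. In mGC1_GFAP, 6 of 37 Hox genes rose, against 13.9% of all probe sets, and 1 fell, against 15.3%. These were Hoxa2 to Hoxa7 and Hoxd1. In all 9 Hox genes had values that did not overlap between mGC1_GFAP and NSC, against 43.3% of all probe sets. Hoxa5 rose by 2.44 ± 0.12, Hoxa3 by 1.32 ± 0.10, Hoxa4 by 1.05 ± 0.13, Hoxa6 by 0.83 ± 0.21 and Hoxa2 by 0.42 ± 0.07. Hoxa7 rose by 0.68 ± 0.24 with a limma adjusted p of 0.0499, and its call was lost when any 1 of the NSC, mGC1_GFAP or mGC2_NES cultures was left out (adjusted p from 0.0501 to 0.129). Hoxd1 fell by 0.28 ± 0.08 (limma adjusted p = 0.0177), and the p became 0.0720 without the C/tv-a NSC culture, 0.0587 without the N/tv-a one and 0.0654 without mGC1_GFAP 3.

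In mGC2_NES, 6 Hox genes rose, against 16.6% of all probe sets, and 0 fell, against 18.2%. Values of 9 Hox genes did not overlap with NSC, against 46% of all probe sets. Hoxa5 rose by 2.50 ± 0.12, Hoxa3 by 1.34 ± 0.10, Hoxa6 by 1.21 ± 0.21, Hoxa4 by 0.84 ± 0.13 and Hoxa2 by 0.50 ± 0.07. The sixth was Hoxa9, by 0.23 ± 0.08 (means 6.18 ± 0.05 in mGC2_NES and 5.95 ± 0.03 in NSC, SD, n = 3 each, limma adjusted p = 0.0425). Both of its means lay in the spermatid range, and its call was lost without any 1 NSC culture and without mGC1_GFAP 3, mGC2_NES 2 or mGC2_NES 3 (adjusted p from 0.0515 to 0.114). Hoxa7 differed by 0.45 ± 0.24 (limma adjusted p = 0.179), and without mGC3_CNP 1 the adjusted p was 0.0129. On leaving out a culture Hoxa10 also passed without mGC2_NES 1 (0.33, limma adjusted p = 0.0187), and Hoxd3 without mGC3_CNP 2 or mGC3_CNP 3 (0.22, limma adjusted p = 0.0224 and 0.0369).

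In mGC3_CNP, 5 Hox genes rose, against 14.9% of all probe sets, and 0 fell, against 15.5%. Values of 8 did not overlap with NSC, against 42.4% of all probe sets. Hoxa5 rose by 3.04 ± 0.12, at least 8.22-fold, Hoxa3 by 1.69 ± 0.10, Hoxa6 by 1.26 ± 0.21, Hoxa4 by 1.15 ± 0.13 and Hoxa2 by 0.62 ± 0.07. Hoxa7 differed by 0.67 ± 0.24 (limma adjusted p = 0.0522), and passed without mGC3_CNP 2 (limma adjusted p = 0.0311) or mGC3_CNP 3 (limma adjusted p = 0.0289), the cultures that read 7.67. Hoxd1 differed by -0.21 and passed without the G/tv-a NSC culture (-0.27, limma adjusted p = 0.0217).

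Within each mouse line, where 3 tumour cultures face a single NSC culture and no test was run, Hoxa5 differed most in each. For Hoxa5 the tumour mean exceeded the NSC value by 2.39 in G/tv-a, 2.48 in N/tv-a and 3.11 in C/tv-a. For Hoxa3 the differences were 1.38, 1.45 and 1.52 in the same lines, and for Hoxa4 they were 1.10, 0.70 and 1.24. For Hoxa7 they were 0.78, 0.37 and 0.65. In each line the lowest tumour culture was above the NSC culture for all 6 genes. That follows from the lack of overlap already given and adds nothing to it.

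Between the tumour groups 0 of 37 Hox genes were called by limma in each of the 3 pairs. Among all probe sets 6.13% were called for mGC1_GFAP minus mGC2_NES, 0.487% for mGC1_GFAP minus mGC3_CNP and 0.459% for mGC2_NES minus mGC3_CNP. Under an unadjusted p of 0.05, the Hox counts in the same order were 1, 3 and 3 of 37. Over all 21780 probe sets the counts by that same measure were 4479, 2816 and 2900. An F test over the 3 groups called 0 of 37, against 4.05% of all probe sets called. Before adjustment, 3 of the 37 had an F test p under 0.05. Values did not overlap between mGC1_GFAP and mGC2_NES for 3 genes (Hoxb6, Hoxd1 and Hoxd3), against 26.5% of all probe sets. They did not overlap between mGC1_GFAP and mGC3_CNP for 4 (Hoxa2, Hoxa3, Hoxa5 and Hoxd9), against 19.4%, nor between mGC2_NES and mGC3_CNP for 3 (Hoxa3, Hoxa5 and Hoxa9), against 18.2%.

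Hoxa5 had the largest of these uncalled differences, and Hoxa5 and Hoxa3 read higher in every mGC3_CNP culture than in any culture of the other tumour groups. Hoxa13 differed by -0.45 ± 0.30 for mGC1_GFAP minus mGC2_NES and by 0.38 ± 0.30 for mGC2_NES minus mGC3_CNP, and Hoxa6 by -0.43 ± 0.23 for mGC1_GFAP minus mGC3_CNP, with overlapping values. mGC1_GFAP minus mGC3_CNP was -0.60 ± 0.13 for Hoxa5 (9.34 ± 0.29 and 9.94 ± 0.03, SD, n = 3 each, limma adjusted p = 0.105), with a 95% interval of -0.90 to -0.30. mGC2_NES minus mGC3_CNP was -0.54 ± 0.13 for Hoxa5 (9.40 ± 0.13 and 9.94 ± 0.03, limma adjusted p = 0.130), and the adjusted p was 0.0396 without mGC1_GFAP 3. For Hoxa3 the same differences were -0.37 ± 0.10 (limma adjusted p = 0.149) and -0.36 ± 0.10 (limma adjusted p = 0.158). In the F test the lowest adjusted p among Hox genes was 0.0577, for Hoxa5, and without mGC1_GFAP 3 it was 0.0418.

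Hox proteins bind DNA with partners of the Pbx and Meis families. Of 8 measured cofactor genes, 1 rose in tumours and 2 fell, against 17.6% and 19.2% of all probe sets. Meis1 fell by 1.66 ± 0.17 on the log2 scale, to 8.91 ± 0.27 in tumours against 10.57 ± 0.24 in NSC (limma adjusted p = 1.20e-05). Meis2 fell by 2.33 ± 0.60 (9.99 ± 1.13 in tumours and 12.32 ± 0.11 in NSC, limma adjusted p = 0.00910), with mGC1_GFAP 2 at 7.05 and the other tumour cultures between 9.96 and 10.74. Meis3 rose by 0.42 ± 0.09 (limma adjusted p = 0.00405). Pbx3 averaged 11.46 ± 1.41 in tumours and 10.98 ± 0.20 in NSC (limma adjusted p = 0.637), and mGC2_NES 2 read 7.78 while every other tumour culture read between 11.37 and 12.49.

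Retinoic acid is the signal that opens the low-numbered end of the clusters in the embryo. Of 17 measured genes for its synthesis, carriage, breakdown and receptors, 4 rose in tumours and 3 fell. The shares of all probe sets were 17.6% and 19.2%. Rxrg, a receptor subunit, rose by 4.25 ± 0.21, with 10.31 ± 0.48 in tumours and 6.06 ± 0.28 in NSC (limma adjusted p = 2.99e-08). Rarg, a retinoic acid receptor, rose by 1.61 ± 0.11 (9.34 ± 0.19 and 7.73 ± 0.10, limma adjusted p = 6.52e-07), whereas Rara and Rarb differed by 0.21 and 0.26 and were not called. Cyp26b1, which breaks retinoic acid down, rose by 0.56 ± 0.06. Crabp1, a retinoic acid carrier, fell by 3.19 ± 0.41 (7.64 ± 0.14 in tumours and 10.83 ± 1.44 in NSC), and its NSC values of 11.90, 11.40 and 9.19 differed between the C/tv-a, N/tv-a and G/tv-a lines. Aldh1a3, an enzyme that makes retinoic acid, fell by 2.44 ± 0.24, and Aldh1a1, another such enzyme, by 0.23 ± 0.07 with both means inside the spermatid range.

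Of 8 measured regulators that act upstream of Hox genes in the embryo, 4 rose and 0 fell. The shares of all probe sets were 17.6% and 19.2%. Egr2, which switches on Hox genes including Hoxa2 in the hindbrain and is also an immediate early and myelination gene, rose by 1.83 ± 0.15 (10.86 ± 0.42 in tumours and 9.03 ± 0.20 in NSC, limma adjusted p = 2.04e-06). Gdf11, a secreted factor that promotes posterior identity, rose by 0.83 ± 0.16, and Gbx2, a gene of the anterior hindbrain, by 0.51 ± 0.09. The Cdx genes, which act on trunk Hox genes, were not called, with differences of 0.09 for Cdx1, 0.20 for Cdx2 and -0.09 for Cdx4. Of 8 markers of spinal cord and hindbrain progenitors, 1 rose and 1 fell. Irx3 rose by 0.95 ± 0.11 and Dbx2 fell by 1.66 ± 0.13.

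**Figure D4:**
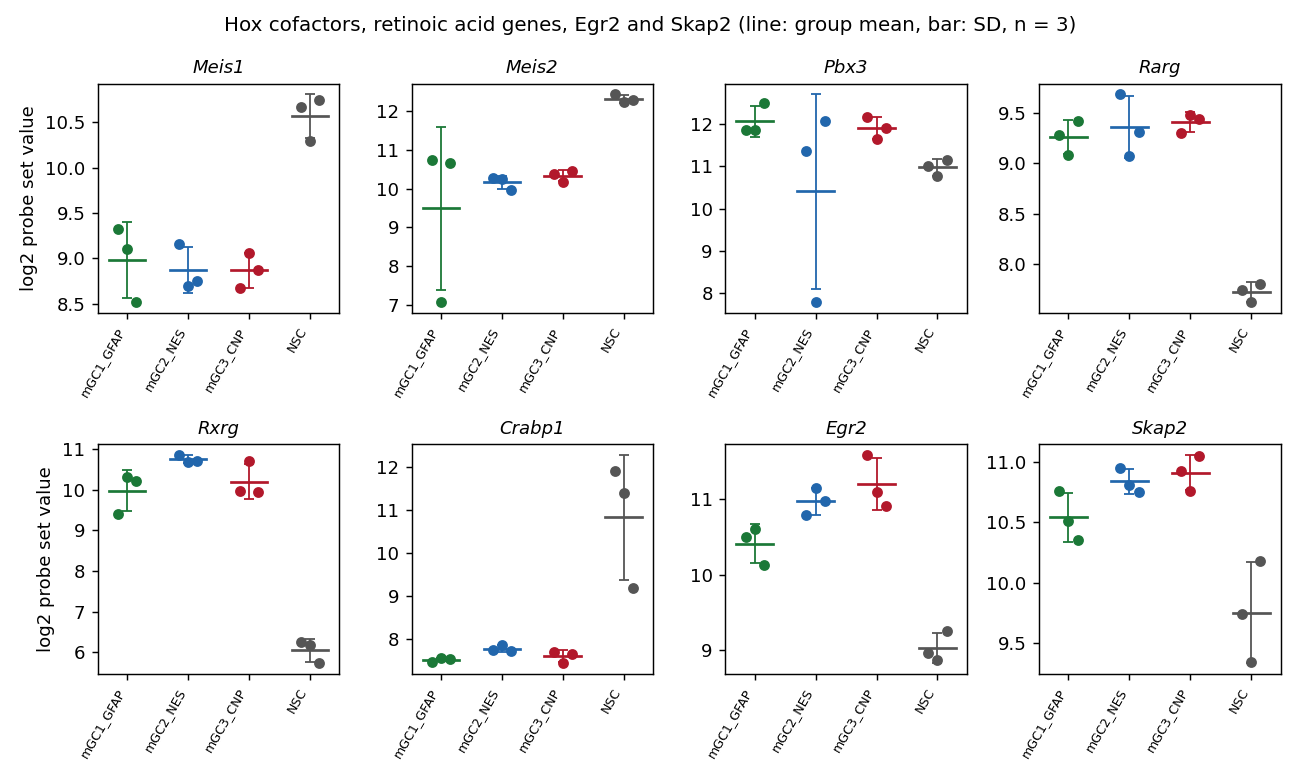
Log2 probe set values of 8 genes related to Hox function in each culture, by group, with the group mean as a line and the SD as a bar (n = 3). The vertical axes differ between panels and do not start at 0. Meis1, Meis2 and Crabp1 are lower in tumours than in NSC, and Rarg, Rxrg, Egr2 and Skap2 are higher, while single cultures stand apart in Meis2 (mGC1_GFAP 2, 7.05) and Pbx3 (mGC2_NES 2, 7.78).

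Polycomb proteins keep Hox clusters silent and Trithorax proteins keep them active. Of 30 probe sets for Polycomb genes, 10 rose in tumours and 9 fell, against 17.6% and 19.2% of all probe sets. The largest rises were in Ezh1, a methyltransferase of the silencing mark on histone H3, by 0.97 ± 0.07, in Phc3 by 0.82 ± 0.10 and in Cbx7 by 0.67 ± 0.08. The largest falls were in Phc1 by 0.41 ± 0.07, in Rnf2, which modifies histone H2A, by 0.37 ± 0.06 and in Ezh2, the paralog of Ezh1, by 0.35 ± 0.07. Bmi1 differed by -0.04 (limma adjusted p = 0.817). Of 17 probe sets for Trithorax genes and demethylases of the silencing mark, 3 rose and 4 fell. Kmt2a, the methyltransferase best known for keeping Hox A genes on, differed by 0.05 (limma adjusted p = 0.744) and the demethylase Kdm6b by 0.11 (limma adjusted p = 0.165). Kmt2d rose by 0.40 ± 0.09 and Kmt2c by 0.35 ± 0.09 over the pooled tumours. In mGC3_CNP by itself they differed from NSC by only 0.07 and 0.21, and neither was called (limma adjusted p = 0.730 and 0.201). Wdr5, Dpy30 and Ash2l, shared subunits of these complexes, fell by 0.39 ± 0.07, 0.36 ± 0.10 and 0.34 ± 0.04.

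Genes that flank the clusters gave 6 rises and 3 falls in 19 probe sets, against 17.6% and 19.2% of all probe sets. Calcoco1, which lies near Hox C, rose by 1.22 ± 0.11, and Atf7, also near Hox C, rose by 0.42 ± 0.06. The Hox C genes, which read below 7.42 in every culture, were not called. Besides the low-reading probe set of Hibadh, the falls were in Mtx2 by 0.37 ± 0.06 and Lnpk by 0.35 ± 0.13, both near Hox D. Of 9 non-coding transcripts of the clusters 0 were called by limma, with 1 under an unadjusted p of 0.05, among them Mir196b at 0.02 and Hottip at 0.07.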

How the data were processed

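RNA of 12 cultures was measured on Affymetrix whole-transcript arrays, and the deposited log2 values came from the authors' RMA run. The submitters' processing notes name Affymetrix Expression Console as the program (no version is given). RMA normalizes between arrays, so a shift common to all genes would not show, and precision is limited by how many arrays there are. The annotation gives 1 symbol to 21780 of 28270 probe sets, several to 1617 and none to 4873, and only the first were tested. Replicates are separate cultures, but whether they came from separate animals is not stated, so p-values reflect only how far these cultures differ from each other, which may be technical.

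Differences were fitted with limma 3.58.1 in R 4.3.3 (lmFit and eBayes, two-sided), on all 12 arrays against NSC, with the 3 tumour groups weighted equally, and on the 9 tumour arrays between tumour groups. P-values were adjusted by Benjamini-Hochberg over all 21780 probe sets and called under 0.05. The fits were tested on simulated data. Alternatives were array scaling, a filter on dim probe sets, trend with robust eBayes, all arrays in 1 fit, leaving out each culture and a replicate block.

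The members and lists were chosen with earlier results of these data known. Every Hox gene called in any comparison is given with all its values. From each related list other than the cell type markers, up to 3 called genes per direction with the largest difference of tumour minus NSC are named, and Kmt2a, Ezh2, Bmi1, Kdm6b, Pbx3, Meis1, Meis2, Rara, Rarb, Rarg, Cdx2, Gbx2 and Egr2 whatever their value. Hoxa10, Hoxa11, Hoxa13, Hoxb1, Hoxb3, Hoxb5, Hoxc5, Hoxd3, Snx10, Evx1, Hottip, Mir196b, Hoxaas2, Tax1bp1, 5730596B20Rik, Jazf1, Cdx1, Cdx4 and individual markers of cell types were named after their values were seen, for their place beside a result. The spermatid range leaves out Prm1, which read 13.5 in the G/tv-a NSC culture and at most 7.77 elsewhere, and this was decided after seeing the values. RefSeq names and gene order are those of GRCm38.p6.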

Additional observations from a re-analysis of the deposited data

Results flagged for a closer look

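In each of the 37 Hox genes the highest and the lowest of the 9 tumour cultures were set against the nearest of the others by Dixon's criterion, which chance passes in about 1 in 20 such sets, and 3 genes passed. Hoxa7 read 8.71 in mGC3_CNP 1, where the next tumour culture read 8.14. Hoxa13 read 7.85 in mGC2_NES 3, where the next read 6.76. Hoxd11, a gene of the distal limb and lower trunk, read 6.84 in mGC3_CNP 1, where the next lowest read 7.01, and all of its readings lay below 7.42.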

How the results depend on the processing

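Hoxa2 to Hoxa6 stayed higher than NSC and past the threshold in all 19 alternatives for tumour minus NSC and in all 18 for each tumour group. For tumour minus NSC, Hoxa5 ranged over 2.62 to 2.71 and Hoxa3 over 1.39 to 1.54. The dim filter kept 24 of the 37 Hox genes. Hoxa7 kept its call in 16 of 19 for tumour minus NSC and in 6 of 18 for mGC1_GFAP minus NSC, Hoxd1 in 16 of 18 and 14 of 17, and Hoxa9 in 9 of 17 for mGC2_NES minus NSC.

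With arrays centred on the median of each chromosome, 8 Hox genes were called for mGC3_CNP minus NSC, the 5 called without it plus Hoxc4 (-0.22), Hoxc8 (-0.24) and Hoxd1 (-0.23). In the F test over the tumour groups 1 gene, Hoxa5, was called with that centring (limma adjusted p = 0.0466), with trend and robust eBayes (0.0496) and with all 12 arrays in 1 fit (0.0302). The causes were not tested. Leaving out 1 culture gave 5 to 8 calls for tumour minus NSC, 5 to 7 for mGC1_GFAP minus NSC, 5 to 7 for mGC2_NES minus NSC and 5 to 6 for mGC3_CNP minus NSC. It gave 0 calls for mGC1_GFAP minus mGC2_NES and mGC1_GFAP minus mGC3_CNP, 0 to 1 for mGC2_NES minus mGC3_CNP and 0 to 1 for the F test, the 1 being Hoxa5 without mGC1_GFAP 3.

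With the replicate number as a block, 0 Hox genes were called in any tumour pair or the F test, as without it, while over all probe sets the calls were 1436, 74, 121 and 856 against 1336, 106, 100 and 882. Tumour cultures that share a number correlated in their deviations at 0.0022 to 0.25, over 0.1 in 5 of 9 pairs, and 6 of 9 correlated best with their own number, so the numbers were not taken to pair the cultures.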
